A study of Homo sapiens with 6 samples.

Results

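The 9 genes SMARCC1, MED12, NCOA3, EP300, CREBBP, PABPC1, ARID1A, KMT2D and SF3B4 encode proteins that the arginine methyltransferase CARM1, also called PRMT4, methylates. They were taken by name from the 60420 gene identifiers of a ribosome profiling table, in which each symbol matched a single identifier. The cells were HEK293T, a human embryonic kidney line with the SV40 large T antigen, and all libraries came from this line. Groups were an inhibitor of PRMT4, an inhibitor of PRMT1 and the vehicle DMSO, each with 1 input library for RNA level and 1 library of ribosome footprints, the RNA stretches that ribosomes shield from nuclease. No compound, dose or time of treatment is stated in the labels, which describe the inputs, too, as RNA protected by ribosomes. With 1 library per group there were no replicates, so every difference below is between single libraries, has no p-value and has no replicate check.

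CARM1 is a type I arginine methyltransferase that was found as a coactivator of nuclear receptors. It is recruited by p160 coactivators and methylates histone H3, the acetyltransferases p300 and CBP, chromatin remodelling subunits and RNA-binding proteins. The mark is placed on the finished protein. Message and ribosome levels therefore bear on how much of each substrate was being made, and they carry no information on methylation itself.

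The start codon contexts of 6 messages are shown because footprint levels depend on initiation there. They were read from GENCODE 29 transcripts (build GRCh38), and the capitals mark the start codon.
MED12: gctgggcaagATGgcggccttcg
NCOA3: tatattcaagATGagtggattag
EP300: agaattaaaaATGgccgagaatg
CREBBP: gcaggtgaaaATGgctgagaact
ARID1A: agcggggatcATGgccgcgcagg
SF3B4: ctctttcgccATGgctgccgggc

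The start codons lie at chrX:71118755-71118757 on the plus strand for MED12, chr20:47622248-47622250 on the plus strand for NCOA3, and chr22:41093005-41093007 on the plus strand for EP300. They lie at chr16:3879914-3879916 on the minus strand for CREBBP, chr1:26696404-26696406 on the plus strand for ARID1A, and chr1:149927757-149927759 on the minus strand for SF3B4. In the consensus for efficient initiation a purine stands 3 bases before the start codon and a G directly after it. Both features were present in 5 of these 6 contexts, all but that of NCOA3, which has an A after the start codon. Among 7876 tested protein-coding genes, 47.1% had both. ARID1A and MED12, which stand apart from the others below, share both features with EP300, CREBBP and SF3B4. Whether the start context bears on the footprint ratios was not tested.

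Several facts of the libraries bear on all results. The difference between the inhibitor labels ran in opposite directions in input and in footprints: across 9040 genes with a mean of at least 5 TPM (a share of all transcripts, scaled for length), the PRMT4 over PRMT1 log2 ratios had Pearson's r = -0.31 and Spearman's rho = -0.40. These input and footprint ratios share no library, and genes are not independent replicates. Protein-coding genes held 33.4%, 38.7% and 45.7% of TPM in the inputs labelled PRMT4 inhibitor, PRMT1 inhibitor and DMSO, and 70.6%, 62.3% and 74.3% in the footprints. Results are therefore given by label, and each ratio of footprints to input is also given with the input of the other inhibitor label. The markers VIM and KRT18 were present at 31.5 TPM or more in all libraries, KRT8 at 3.97 to 8.47, NEFL at 1.5 to 7.0 and PAX2, a kidney marker, only at 0.26 to 1.15 TPM. Genes of blood, liver, pancreas and heart (PTPRC, CD3E, ALB, INS, MYH6) reached at most 0.03 TPM. CARM1 itself lay between 22.8 and 99.9 TPM over the 6 libraries, which does not check the labels, since an inhibitor acts on the enzyme.

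The level of the 9 messages spanned a wide range. PABPC1 was the most abundant, with a mean of 322 TPM over the 3 inputs and 589 TPM over the 3 footprint libraries. SF3B4 and SMARCC1 followed in input at 34.1 and 33.2 TPM, then EP300 at 25.2, CREBBP at 12.0, ARID1A at 11.0, KMT2D at 9.57, MED12 at 6.13 and NCOA3 at 5.44 TPM. Of the 8 neighbouring pairs in this order, 4 overlapped in their ranges over the 3 inputs: SF3B4 with SMARCC1, CREBBP with ARID1A, ARID1A with KMT2D, and MED12 with NCOA3. In footprints the order was PABPC1, SF3B4 (81.7 TPM), SMARCC1 (36.2), KMT2D (12.1), EP300 (9.02), ARID1A (7.07), CREBBP (4.69), MED12 (2.65) and NCOA3 (1.98), and 2 neighbouring pairs overlapped, ARID1A with CREBBP and MED12 with NCOA3. KMT2D stood below CREBBP, ARID1A and EP300 in input and above them in footprints. MED12 and NCOA3, with means of 4.39 and 3.71 TPM over all 6 libraries, lay under the filter of 5 TPM, so 7 of the 9 passed it. Their ratios are given on the same centring and rest on low values.

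**Figure D1:**
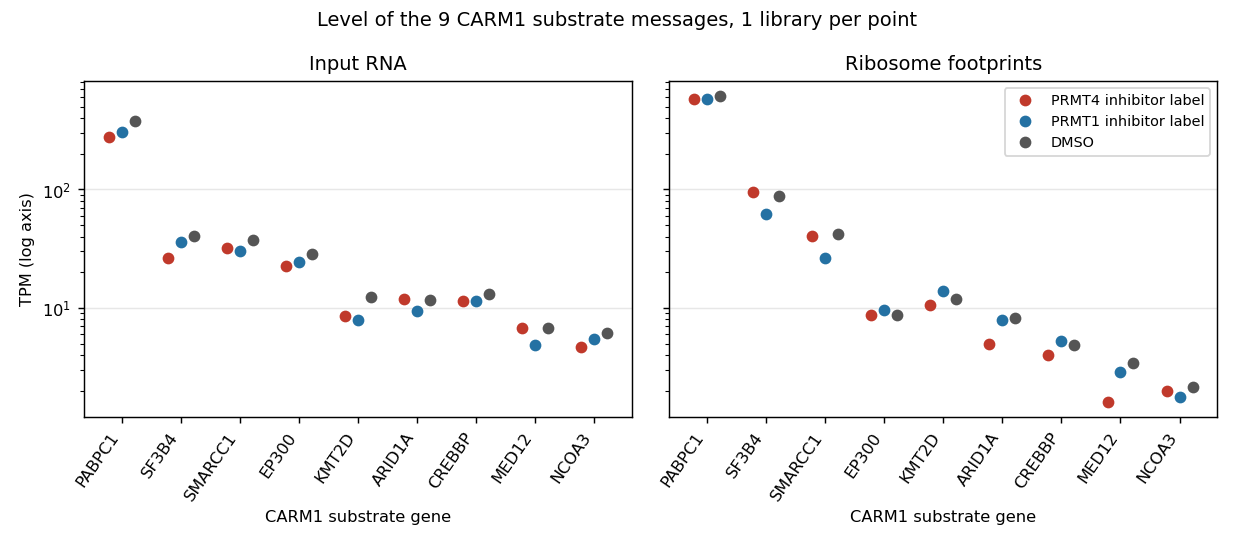
TPM (log axis) of each CARM1 substrate gene in the input libraries (left panel) and the footprint libraries (right panel), 1 point per library. In footprints, ARID1A and MED12 have their lowest point in the library labelled PRMT4 inhibitor (5.0 and 1.61 TPM), and SMARCC1 and SF3B4 in the library labelled PRMT1 inhibitor (26.5 and 62.3 TPM).

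ARID1A (ENSG00000117713.18_3, chromosome 1) encodes the large DNA-binding subunit of the BAF chromatin remodelling complex. Its footprints stood at 5.0 TPM under the PRMT4 inhibitor label and 7.97 TPM under the PRMT1 inhibitor label, against 8.23 TPM in DMSO. Its inputs stood at 11.9 TPM under the PRMT4 inhibitor label and 9.41 TPM under the PRMT1 inhibitor label, against 11.7 TPM in DMSO. The footprint library labelled PRMT4 inhibitor was thus the low one, while the input of that label was close to DMSO in TPM. Ratios were computed as log2((TPM + 1) / (TPM + 1)) and centred on the median tested gene, which understates the change of low genes. On that scale ARID1A had a footprint ratio of -0.62 under the PRMT4 inhibitor label, and only 1.5% of tested genes lay lower. Its input ratio under that label was 0.39, the highest of the 9, or 0.02 without centring. For the PRMT1 inhibitor label its footprint ratio was 0.10, or -0.04 without centring, and its input ratio -0.12.

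SMARCC1 (ENSG00000173473.10_3, chromosome 3), the BAF155 core subunit of the same complex, showed another order. It had 40.5 TPM in footprints labelled PRMT4 inhibitor and 26.5 TPM in those labelled PRMT1 inhibitor, against 41.7 TPM in DMSO. Here the PRMT1 inhibitor library was the low one, with a ratio of -0.49 (7.30% of tested genes lay lower), against -0.03 for the PRMT4 inhibitor label, a value near 0 that was 0.03 after rescaling to protein-coding TPM. Its inputs stood at 32.0 TPM under the PRMT4 inhibitor label and 30.0 TPM under the PRMT1 inhibitor label, against 37.7 TPM in DMSO, both below the vehicle. Relative to the median tested gene the input ratio was 0.13 under the PRMT4 inhibitor label, or -0.23 without centring, and -0.16 under the PRMT1 inhibitor label.

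MED12 (ENSG00000184634.15_3, chromosome X) belongs to the kinase module of Mediator, the complex that links transcription factors to RNA polymerase II, where it activates CDK8. Its footprints stood at 1.61 TPM under the PRMT4 inhibitor label and 2.89 TPM under the PRMT1 inhibitor label, against 3.46 TPM in DMSO. Its inputs stood at 6.73 TPM under the PRMT4 inhibitor label and 4.88 TPM under the PRMT1 inhibitor label, against 6.79 TPM in DMSO. As for ARID1A, footprints were low under the PRMT4 inhibitor label, while the input of that label was close to DMSO in TPM. The footprint ratio was -0.77, the lowest of the 9 genes, and 0.69% of tested genes lay lower. MED12 lies under the filter, so the tested genes leave out MED12 itself and other genes as low. The input ratio under that label was 0.35, or -0.01 without centring. For the PRMT1 inhibitor label the footprint ratio was -0.05, or 0.01 with a pseudocount of 5, and the input ratio was -0.25.

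NCOA3 (ENSG00000124151.18_3, chromosome 20) is a p160 coactivator that brings CARM1 and p300 to nuclear receptors. It had 2.0 TPM in footprints labelled PRMT4 inhibitor and 1.78 TPM in those labelled PRMT1 inhibitor, against 2.17 TPM in DMSO. In input it had 4.71 TPM under the PRMT4 inhibitor label and 5.43 TPM under the PRMT1 inhibitor label, against 6.19 TPM in DMSO. DMSO had the highest value in both kinds of library. All centred ratios of NCOA3 over DMSO lay between -0.12 and 0.03. Without centring its input ratio was -0.33 under the PRMT4 inhibitor label and -0.16 under the PRMT1 inhibitor label.

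EP300 (ENSG00000100393.12_3, chromosome 22) and CREBBP (ENSG00000005339.14_3, chromosome 16) encode the paralogous histone acetyltransferases p300 and CBP. EP300 had 8.68 TPM in footprints labelled PRMT4 inhibitor and 9.61 TPM in those labelled PRMT1 inhibitor, against 8.78 TPM in DMSO. In input EP300 had 22.5 TPM under the PRMT4 inhibitor label and 24.5 TPM under the PRMT1 inhibitor label, against 28.7 TPM in DMSO. The centred input ratio of EP300 was 0.02 under the PRMT4 inhibitor label, or -0.34 without centring. Under the PRMT1 inhibitor label it was -0.07, or -0.22 without centring. CREBBP had 3.97 TPM in footprints labelled PRMT4 inhibitor and 5.22 TPM in those labelled PRMT1 inhibitor, against 4.87 TPM in DMSO, with inputs of 11.5 TPM under each inhibitor label, against 12.99 TPM in DMSO. The centred input ratio of CREBBP was 0.21 under the PRMT4 inhibitor label, or -0.16 without centring, and -0.0022 under the PRMT1 inhibitor label. In both genes the PRMT1 inhibitor library had the highest footprint value, and the PRMT4 inhibitor library the lowest, though for EP300 the last lay close to DMSO. Footprint ratios under the PRMT4 inhibitor label were -0.0088 for EP300, or 0.05 after rescaling to protein-coding TPM, and -0.23 for CREBBP. For the PRMT1 inhibitor label they were 0.26 for EP300 and 0.23 for CREBBP. Of all pairs among the 9 genes, this pair had the most similar profile over the 6 libraries, with a Euclidean distance of 0.31 between log2 profiles centred by library and gene.

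KMT2D (ENSG00000167548.14_3, chromosome 12) encodes a histone H3 lysine methyltransferase that acts at enhancers. It had 10.51 TPM in footprints labelled PRMT4 inhibitor and 13.8 TPM in those labelled PRMT1 inhibitor, against 11.9 TPM in DMSO. Its inputs stood at 8.49 TPM under the PRMT4 inhibitor label and 7.86 TPM under the PRMT1 inhibitor label, against 12.4 TPM in DMSO. Both inhibitor inputs thus lay below DMSO, while the PRMT1 inhibitor footprints lay above it. Relative to the median tested gene, the input ratio was -0.43 under the PRMT1 inhibitor label, where 2.69% of tested genes lay lower, and the footprint ratio 0.35. For the PRMT4 inhibitor label the input ratio was -0.13 and the footprint ratio -0.16.

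SF3B4 (ENSG00000143368.9_2, chromosome 1) encodes a subunit of the SF3b complex that helps U2 snRNP recognise the branch point. It had 95.6 TPM in footprints labelled PRMT4 inhibitor and 62.3 TPM in those labelled PRMT1 inhibitor, against 87.3 TPM in DMSO. Its inputs stood at 26.4 TPM under the PRMT4 inhibitor label and 35.7 TPM under the PRMT1 inhibitor label, against 40.2 TPM in DMSO. It was the only 1 of the 9 with a footprint ratio above 0 under the PRMT4 inhibitor label on this scale (0.14), and its ratio under the PRMT1 inhibitor label was -0.34. The lowest input and the highest footprint value came from the same label. Relative to the median tested gene, the input ratio of SF3B4 was -0.22 under the PRMT4 inhibitor label, or -0.59 without centring. Under the PRMT1 inhibitor label it was -0.0056, or -0.16 without centring.

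PABPC1 (ENSG00000070756.15_3, chromosome 8) encodes the cytoplasmic poly(A)-binding protein that joins message tails to the initiation machinery. It had 578 TPM in footprints labelled PRMT4 inhibitor and 577 TPM in those labelled PRMT1 inhibitor, against 611 TPM in DMSO. In input PABPC1 had 279 TPM under the PRMT4 inhibitor label and 304 TPM under the PRMT1 inhibitor label, against 381 TPM in DMSO. Relative to the median tested gene, the input ratio of PABPC1 was -0.08 under the PRMT4 inhibitor label, or -0.45 without centring. Under the PRMT1 inhibitor label it was -0.16, or -0.32 without centring. Its footprint ratio was -0.07 under the PRMT4 inhibitor label. That of the PRMT1 inhibitor label was 0.06, or -0.083 without centring. PABPC1 has retrotransposed copies, so its value depends on how shared reads were assigned. The copy PABPC3 reached at most 0.03 TPM.

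Over the 9 genes, footprints labelled PRMT4 inhibitor had a median ratio of -0.07 with 8 of 9 below 0, and those labelled PRMT1 inhibitor 0.06, or -0.083 without centring, with 4 of 9 below 0 on the centred scale, beside a median of 0 and 50.0% below 0 over all tested genes by construction. At 1.5-fold, ARID1A and MED12 were lower under the PRMT4 inhibitor label, where 1.83% of all tested genes were lower and 3.09% higher by that measure. Among protein-coding genes of 3 to 10 mean TPM, the range that holds both, 2.24% were that much lower. With a pseudocount of 5 the ratios were -0.40 for ARID1A and -0.35 for MED12 and neither passed 1.5-fold. None of the 9 passed 1.5-fold in footprints labelled PRMT1 inhibitor, where 4.65% of tested genes were lower and 9.48% higher. In input none passed it either: for the PRMT4 inhibitor label 3.11% of tested genes were lower and 5.85% higher, and for the PRMT1 inhibitor label 0.918% were lower and 1.91% higher. The input median was 0.03 under the PRMT4 inhibitor label with 3 of 9 below 0, or -0.33 with 8 below 0 without centring. It was -0.12 under the PRMT1 inhibitor label with 9 of 9 below 0, or 5 of 9 after rescaling to protein-coding TPM.

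**Figure D2:**
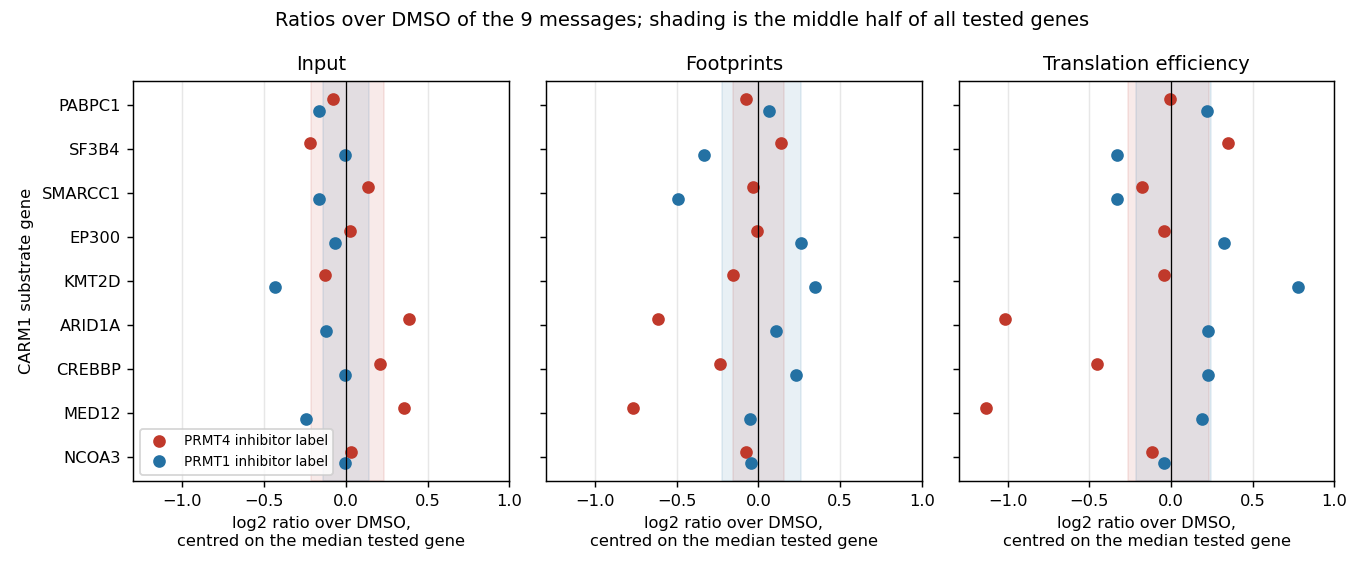
Log2 ratio over DMSO, centred on the median tested gene, of the 9 genes in input, footprints and translation efficiency, with the PRMT4 inhibitor label in red and the PRMT1 inhibitor label in blue. Shading is the interquartile range of all tested genes for each label. ARID1A and MED12 lie at -0.62 and -0.77 in footprints labelled PRMT4 inhibitor, and KMT2D at 0.77 in translation efficiency under the PRMT1 inhibitor label.

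Translation efficiency, the footprint level over the input level, differed between the genes in DMSO already. Its uncentred log2 level there was 1.1 for SF3B4, 0.68 for PABPC1, 0.14 for SMARCC1, -0.05 for KMT2D, -0.46 for ARID1A, -0.80 for MED12, -1.18 for NCOA3, -1.25 for CREBBP and -1.60 for EP300. Set against tested protein-coding genes, 85.3% lay below SF3B4 and 6.20% below EP300. The RNA-processing genes thus stood above the acetyltransferases and the p160 coactivator. Levels per length divide footprints by a length that can include untranslated parts, and the coding share of the annotated transcript ran from 52.0% in SMARCC1 to 96.1% in MED12.

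Relative to DMSO, translation efficiency under the PRMT4 inhibitor label had ratios of -1.13 for MED12 and -1.01 for ARID1A, against -0.45 for CREBBP, 0.35 for SF3B4 and between -0.18 and -0.0059 for the other 5. Both were at least 2-fold lower, as were 2.13% of all tested genes and 1.55% of protein-coding genes of 3 to 10 mean TPM. Neither passed 2-fold with a pseudocount of 5 (-0.64 for MED12 and -0.71 for ARID1A), a lowess trend (-0.96 and -0.94) or no centring (-0.76 and -0.64). The same held with no filter (-0.79 and -0.67) and after the adjustment for coding GC and length given below (-0.87 and -0.66). With genes of at least 1 TPM, MED12 passed 2-fold (-1.07) and ARID1A did not (-0.95). Both passed it with a pseudocount of 0.1 (-1.44 and -1.13) and after rescaling to protein-coding TPM (-1.20 and -1.04). At 1.5-fold MED12 and ARID1A were the only 2 of the 9 that were lower, beside 8.22% of tested genes lower and 4.7% higher. With the input labelled PRMT1 inhibitor in the denominator instead, the values were -0.53 for MED12 and -0.50 for ARID1A, so neither passed 1.5-fold. With that input CREBBP had -0.24, SF3B4 0.13 and NCOA3 -0.08, while SMARCC1 (0.12), EP300 (0.05), PABPC1 (0.08) and KMT2D (0.27) turned above 0. The footprint values above do not use an input library. KMT2D had 0.77 under the PRMT1 inhibitor label, the only 1 of the 9 past 1.5-fold, where 8.45% of tested genes were higher and 3.81% lower. With the input labelled PRMT4 inhibitor it had 0.46. In the PRMT1 inhibitor footprints MED12 had 0.19 and ARID1A 0.23 with the input of the same label, but -0.42 and -0.30 with the other, so their direction turned. SMARCC1 had -0.33 with the input of the same label and -0.64 with the other, and SF3B4 -0.33 and -0.13. EP300 had 0.32 and 0.22 in the same order, CREBBP 0.23 and 0.0048, PABPC1 0.22 and 0.13, and NCOA3 -0.05 and -0.0935. Over the 9, the median under the PRMT4 inhibitor label was -0.12 with 8 below 0, or 0.047 with 4 below 0 with the other input. That of the PRMT1 inhibitor label was 0.22 with 3 below 0, or -0.0935 with 5 below 0 with the other input.

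**Figure D3:**
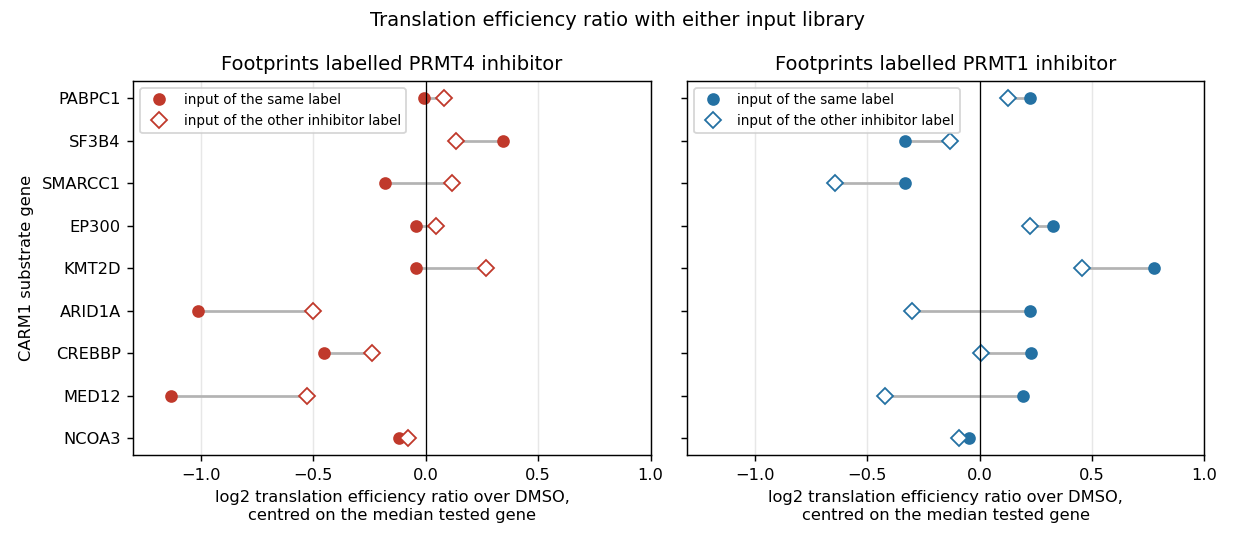
Centred log2 translation efficiency ratio over DMSO of the 9 genes for footprints labelled PRMT4 inhibitor (left) and PRMT1 inhibitor (right). Filled points use the input of the same label and open points that of the other inhibitor label. MED12 and ARID1A stay below 0 in the left panel (-0.53 and -0.50 for the open points) and lie on either side of 0 in the right panel.

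The inhibitor labels were also set against each other directly. For footprints, the PRMT4 over PRMT1 ratio was -0.73 for ARID1A, -0.72 for MED12, -0.51 for KMT2D, -0.47 for CREBBP and -0.28 for EP300, against 0.46 for SF3B4 and 0.45 for SMARCC1. For input the same ratio was 0.49 for ARID1A, 0.58 for MED12, 0.29 for KMT2D, 0.19 for CREBBP and 0.07 for EP300, against -0.23 for SF3B4 and 0.28 for SMARCC1. The EP300 input value was -0.12 without centring. Input and footprints had opposite signs in 8 of the 9 genes, all but SMARCC1, beside 63.9% of all tested genes, and without centring in 7 of 9, beside 70.6%. Medians over the 9 were 0.19 in input, with 1 below 0, -0.28 in footprints, with 7 below 0, and -0.36 in translation efficiency, with 7 below 0. With inputs exchanged the last was -0.11. Whether an exchange of libraries took part in these values was not tested.

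Most of the 9 messages have a property that the choice of genes did not use, a long coding sequence. Of the 9, 7 had more than 3174 coding bases, as did the 807 longest of 8082 tested protein-coding genes. The median over the 8082 was 1284, which PABPC1 exceeded and SF3B4 did not reach. KMT2D has 16611 coding bases, CREBBP 7326, EP300 7242, ARID1A 6855, MED12 6531, NCOA3 4272 and SMARCC1 3315, against 1908 in PABPC1 and 1272 in SF3B4. The GC content of their coding sequence was not extreme, from 46.8% in NCOA3 to 60.1% in KMT2D, beside a median of 51.6%. Among the 9 genes, coding length and the footprint ratio had a Spearman's rho of -0.47 for the PRMT4 inhibitor label and 0.83 for the PRMT1 inhibitor label. Over all 8082 genes rho was -0.12 for the PRMT4 inhibitor label and 0.09 for the PRMT1 inhibitor label. Genes are not independent replicates, and both labels share the DMSO library. The 807 longest had median footprint ratios of -0.03 under the PRMT4 inhibitor label and 0.10 under the PRMT1 inhibitor label, and ARID1A and MED12 lay below the first of these. GC content moved with the input ratios over all genes, with rho of 0.30 for the PRMT4 inhibitor label and -0.40 for the PRMT1 inhibitor label. Translation efficiency ratios under the PRMT4 inhibitor label had rho of -0.37 with coding GC and -0.22 with coding length. Those under the PRMT1 inhibitor label had 0.19 and 0.06. After a linear adjustment for coding GC and length, chosen after seeing the data, the footprint ratio under the PRMT4 inhibitor label was -0.68 for MED12 and -0.50 for ARID1A, so that 1 gene passed 1.5-fold. The translation efficiency ratio of KMT2D under the PRMT1 inhibitor label was 0.56 after it, against 0.77 before. Under the PRMT4 inhibitor label the same ratio of KMT2D was 0.43 after the adjustment, against -0.04 before. In coding length, 99.96% of tested protein-coding genes lay below KMT2D. Its adjusted values thus rest on the far end of the linear fit, and no direction is read from them.

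**Figure D4:**
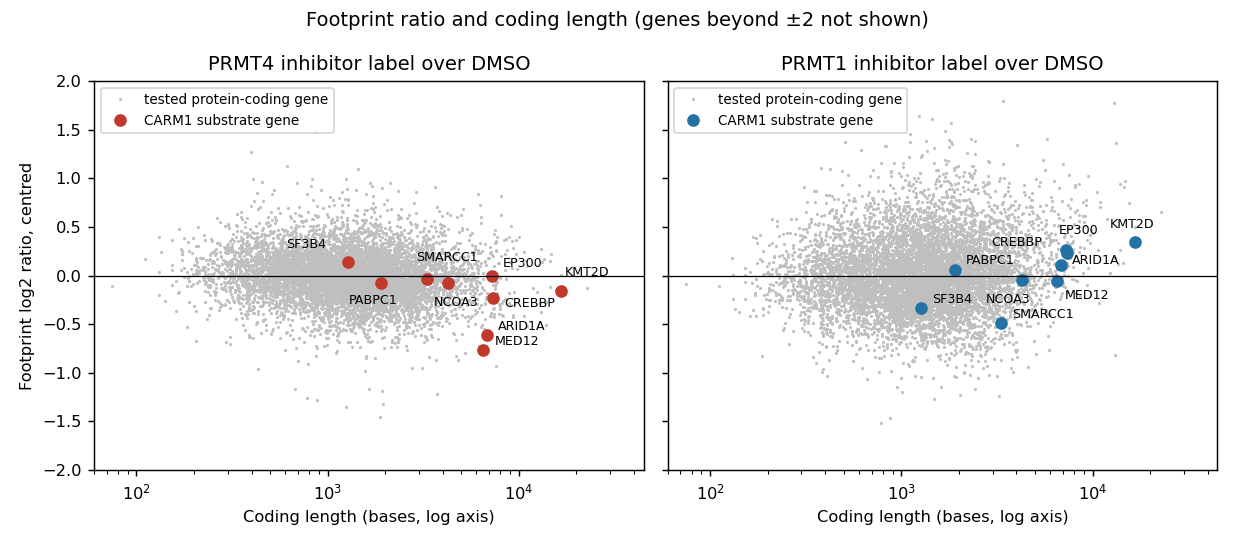
Centred footprint log2 ratio over DMSO against coding length in bases (log axis) for tested protein-coding genes (grey) and the 9 CARM1 substrate genes (coloured), with the PRMT4 inhibitor label left and the PRMT1 inhibitor label right. In the left panel MED12 and ARID1A (6531 and 6855 coding bases) lie below the other long members, and in the right panel KMT2D and EP300 are the highest of the 9, at 0.35 and 0.26.

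For 8 of the 9, all but SMARCC1, the protein-coding gene of nearest profile among 8098 others was named by Euclidean distance over the 6 libraries. ARID1A was nearest to E4F1 (distance 0.14), with 10.8 TPM in footprints labelled PRMT4 inhibitor and 14.5 TPM in those labelled PRMT1 inhibitor, against 15.9 TPM in DMSO. MED12 was nearest to PPP6R3 at 0.29, the largest of these 8 distances, and KMT2D to FNTB at 0.23. SF3B4 was nearest to SEPHS2 at 0.10, PABPC1 to PPP1R10 at 0.13 and CREBBP to CSRNP2 at 0.15. EP300 was nearest to NUP205 at 0.07 and NCOA3 to WIPI2 at 0.08. The median distance of all candidates was between 1.05 and 2.04. Among these 8, the profile of MED12 thus had the least close neighbour, at low TPM.

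The other subunits of the same complexes were taken from lists of partners, and counts refer to those past the filter. Of 26 BAF partners, 22 passed, with median footprint ratios of -0.01 under the PRMT4 inhibitor label (11 below 0) and -0.09 under the PRMT1 inhibitor label (14 below 0). None of them passed 1.5-fold under the PRMT4 inhibitor label, beside 1.83% of tested genes lower and 3.09% higher, shares too small to read anything from a count of 0 among 22. Among these 22 the lowest were DPF1 (-0.44) and the ATPase SMARCA4 (-0.31), and the highest BRD9 (0.44) and the alternative ATPase SMARCA2 (0.34). In PRMT1 inhibitor footprints the lowest were SMARCA4 (-0.67) and SMARCB1 (-0.45) and the highest ARID1B (0.90) and SMARCA2 (0.78). ARID1B, the paralogue that takes the place of ARID1A in other BAF complexes, had 6.19 TPM in footprints labelled PRMT4 inhibitor and 13.2 TPM in those labelled PRMT1 inhibitor, against 7.43 TPM in DMSO. Its highest value was therefore in the PRMT1 inhibitor library, whereas ARID1A had no raised value there. Under the PRMT4 inhibitor label the footprint ratio of ARID1B was -0.22. That of ARID2, a relative under the filter, was -0.39, with 1.92 TPM against 2.85 TPM in DMSO.

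Of 32 further Mediator genes, 30 passed, with median footprint ratios of 0.05 under the PRMT4 inhibitor label (11 below 0) and 0.05 under the PRMT1 inhibitor label (14 below 0). At 1.5-fold, 0 were lower and 1 higher under the PRMT4 inhibitor label, beside 1.83% and 3.09% of tested genes. For the PRMT1 inhibitor label 0 were lower and 2 higher, beside 4.65% and 9.48%, and these counts are too small to read against those shares. Under the PRMT4 inhibitor label MED24 (-0.39) and MED8 (-0.15) were lowest and MED1 (0.60) and MED23 (0.42) highest. In PRMT1 inhibitor footprints MED24 (-0.39) and cyclin C, CCNC (-0.34), were lowest and MED23 (0.73) and MED13L (0.63) highest. The partners of MED12 in the kinase module, CDK8, CCNC and MED13, had footprint ratios of -0.02, 0.01 and 0.03 under the PRMT4 inhibitor label. MED12L, the paralogue of MED12, had 0.26 under that label, with 4.41 TPM against 3.55 TPM in DMSO, and 0.22 under the PRMT1 inhibitor label.

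Of 11 further coactivators and acetyltransferases, 8 passed, with 7 below 0 under both labels and medians of -0.09 under the PRMT4 inhibitor label and -0.16 under the PRMT1 inhibitor label. KAT2A (-0.48) and KAT8 (-0.22) were lowest and KAT7 (0.03) and HAT1 (-0.01) highest under the PRMT4 inhibitor label. Under the PRMT1 inhibitor label HAT1 (-0.41) and KAT6A (-0.40) were lowest and KAT7 (0.03) and NCOA2 (-0.08) highest. EP300 and CREBBP, at 0.26 and 0.23 under that label, lay above all 8. NCOA1, a p160 relative under the filter, was higher still at 0.53.

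Of 17 partners and relatives of KMT2D, 15 passed, with medians of 0.03 under the PRMT4 inhibitor label (6 below 0) and -0.13 under the PRMT1 inhibitor label (8 below 0). Under the PRMT4 inhibitor label the scaffold menin, MEN1 (-0.34), and KMT2A (-0.13) were lowest and the methyltransferase SETD1A (0.69) and RBBP5 (0.30) highest. Under the PRMT1 inhibitor label the core subunits WDR5 (-0.33) and ASH2L (-0.27) were lowest and the enzymes KMT2C (0.98) and KMT2A (0.59) highest. KMT2C, the closest relative of KMT2D, had 3.39 TPM in footprints labelled PRMT4 inhibitor and 5.71 TPM in those labelled PRMT1 inhibitor, against 2.77 TPM in DMSO. KMT2B, a relative under the filter, was higher still under the PRMT1 inhibitor label at 1.54, with 3.76 TPM against 0.81 TPM in DMSO. Under the PRMT4 inhibitor label KMT2B had -0.10.

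All 21 U2 and SF3 partners of SF3B4 passed, with medians of -0.06 under the PRMT4 inhibitor label (14 below 0) and -0.30 under the PRMT1 inhibitor label (16 below 0). SF3B4, at -0.34, lay near this median under the PRMT1 inhibitor label. There the helicase DHX15 (-0.75) and SF3B5 (-0.71) were lowest and U2AF1 (0.11) and U2SURP (0.07) highest. In PRMT4 inhibitor footprints SF3A3 (-0.37) and SF3B5 (-0.25) were lowest and RBM17 (0.14) and SF3A1 (0.09) highest.

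Of 20 genes of poly(A) tail binding and its partners, 16 passed, with medians of -0.12 under the PRMT4 inhibitor label (12 below 0) and -0.10 under the PRMT1 inhibitor label (10 below 0). PABPC4, a paralogue of PABPC1, had 62.0 TPM in footprints labelled PRMT4 inhibitor and 47.5 TPM in those labelled PRMT1 inhibitor, against 83.5 TPM in DMSO. Its ratios were -0.42 under the PRMT4 inhibitor label and -0.66 under the PRMT1 inhibitor label, both below those of PABPC1. TOB1, which links PABPC1 to deadenylation, was also among the lowest under both labels (-0.51 and -0.65). The highest were the deadenylation scaffold CNOT1 (0.24) and LARP4 (0.14) under the PRMT4 inhibitor label, and the deadenylase subunit PAN2 (0.87) and PABPC1L (0.74) under the PRMT1 inhibitor label.

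Of 19 further genes whose proteins are reported CARM1 substrates, CARM1 included, 14 passed. Their median footprint ratio was -0.19 under the PRMT4 inhibitor label (11 below 0) and -0.47 under the PRMT1 inhibitor label (14 below 0). In input all 14 were below 0 under the PRMT4 inhibitor label (median -0.29) and 12 under the PRMT1 inhibitor label (median -0.24). At 1.5-fold, 5 were lower and 0 higher in PRMT1 inhibitor footprints, beside 4.65% and 9.48% of tested genes. In PRMT4 inhibitor footprints 1 was lower and 0 higher, beside 1.83% and 3.09%. The alternative settings were not run for this list. In PRMT4 inhibitor footprints the pyruvate kinase PKM (-0.82) and NONO (-0.40) were lowest and the polymerase subunit POLR2A (0.26) and RPIA (0.10) highest. In PRMT1 inhibitor footprints PKM (-0.86) and the ATPase RUVBL1 (-0.69) were lowest and POLR2A (-0.04) and PRMT5 (-0.07) highest.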

How the data were processed

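The deposited table held TPM computed by the authors, printed to 2 decimals, with 1 column for each of 6 libraries. Each column was assigned by its name to 1 library. Per the submitters' processing notes, RSEM 1.2.22 and STAR 2.4.2a were used, as were Bowtie 1.1.2 and cutadapt 1.18, on build GRCh37.p13. No step is given for each. TPM keeps no sequencing depth, so the libraries' depth is unknown and counting error could not be given. TPM is a share of a fixed total, so abundant small RNAs lower all other values. No separate preparation of the input RNA is described in the labels.

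Of 60461 rows, 41 copies from the Y pseudoautosomal region, all at 0, were dropped. Symbols matched 55725 identifiers. Gene types and transcripts came from GENCODE 29, and 1 principal transcript per gene gave coding length and GC content. Start contexts were printed only for genes with an entry in the RefSeq promoter table, which 7 of the 9 had, and an annotated leader, which KMT2D lacked. SMARCC1 and PABPC1 are not shown.

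Ratios used a pseudocount of 1 and were centred on the median of 9040 genes with a mean of at least 5 TPM. The medians removed were -0.37 and -0.16 for input, -0.0060 and -0.15 for footprints and 0.37 and 0.02 for translation efficiency (PRMT4, then PRMT1 inhibitor label). Folds of 1.5 and 2 served to count genes. The calculation recovered a known 2-fold footprint shift, planted in abundant genes only, when tested on simulated data. It was not tried at TPM as low as those of ARID1A and MED12. Alternatives were other pseudocounts, filters, centring, rescaling, a lowess trend and exchanged inputs. Named genes were the 9, CARM1, the nearest gene of each (that of SMARCC1 is not reported here), and the 2 highest and 2 lowest of each partner list in each footprint comparison. Paralogues and relatives of the 9 (ARID1B, ARID2, MED12L, NCOA1, KMT2B, KMT2C, PABPC3, PABPC4) and the kinase module genes were also given. The 9 genes, the lists and the tests were chosen with earlier results of these data known. Python 3.11.15, numpy 2.4.6, pandas 2.3.3 and statsmodels 0.14.6 were used.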

Additional observations from a re-analysis of the deposited data

How the results depend on the processing

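Under all alternatives run for them, the footprint ratio labelled PRMT4 inhibitor stayed below 0 for MED12 (from -1.05 to -0.35) and ARID1A (-0.70 to -0.40), that labelled PRMT1 inhibitor below 0 for SMARCC1 (-0.64 to -0.40) and SF3B4 (-0.48 to -0.21), and above 0 for KMT2D (0.20 to 0.44). A value counted as moved at 0.1 or more on the log2 scale and a count at more than 1.5 times. No paired analysis was possible because each group had 1 library, and no library could be left out.

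Without centring, medians of the 9 were -0.33 and -0.28 in input and -0.083 in footprints labelled PRMT1 inhibitor, 0.25 in translation efficiency labelled PRMT4 inhibitor, and 0.0035, -0.13 and -0.0155 in the PRMT4 over PRMT1 ratios of input, footprints and translation efficiency. Then 8 were below 0 in input labelled PRMT4 inhibitor, 3 in translation efficiency of that label and 4 in input between inhibitor labels, 1 was 1.5-fold lower in each input and in PRMT1 inhibitor footprints, and 1 higher in translation efficiency labelled PRMT4 inhibitor. With no filter the same medians were -0.30, -0.27, -0.083, 0.22, 0.018, -0.13 and -0.030, the numbers below 0 were 7, 3 and 4, and 1 was 1.5-fold lower in PRMT1 inhibitor footprints and 1 higher in translation efficiency labelled PRMT4 inhibitor. With genes of at least 1 TPM, 5 were below 0 in input and 5 in translation efficiency labelled PRMT4 inhibitor and 2 in input between labels, and the last median of translation efficiency was -0.26.

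With exchanged inputs, translation efficiency medians were 0.047 under the PRMT4 inhibitor label and -0.0935 under the PRMT1 inhibitor label over DMSO and -0.11 between labels. Then 4 and 5 were below 0 over DMSO, 0 were 1.5-fold lower under the PRMT4 inhibitor label, and 1 was lower and 0 higher under the PRMT1 inhibitor label. With a pseudocount of 5, 0 were 1.5-fold lower in PRMT4 inhibitor footprints, 0 higher in translation efficiency labelled PRMT1 inhibitor, and 2 were below 0 in PRMT1 inhibitor footprints. After rescaling to protein-coding TPM, the PRMT1 inhibitor footprint median was 0.17, 1 was 1.5-fold lower in PRMT4 inhibitor footprints and 5 were below 0 in PRMT1 inhibitor input. The lowess trend left 2 below 0 in input between labels.

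The adjustment for coding GC and length, chosen after seeing the data, gave medians of 0.068 in translation efficiency labelled PRMT1 inhibitor, with 0 higher at 1.5-fold, and of 0.034, -0.10 and -0.13 between labels in input, footprints and translation efficiency. It left 1 gene 1.5-fold lower in PRMT4 inhibitor footprints, 5 below 0 in PRMT4 inhibitor input and 4 in input between labels. The cause of these moves was not tested. Depth is unknown, so the counting error of MED12 and NCOA3, with 1.61 and 1.78 TPM at the lowest, could not be given.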
